A study of Homo sapiens with 12 samples.

Results

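The genes described here are the amino acid transporter families of human cells, the solute carrier (SLC) genes whose symbols start with SLC1A, SLC3A, SLC6A, SLC7A, SLC36A, SLC38A or SLC43A. Of 58381 genes in the count files, 60 protein-coding genes matched. One of them, SLC7A6OS, is the opposite-strand neighbor of SLC7A6 and matches by its symbol only, so 59 are transporter genes or their subunits. A mean of 10 or more counts in at least 1 of the 4 groups was reached by 43 genes, and 42 of these passed the filter on low counts and were tested. SLC7A14 was described but not tested, and 17 genes were too low to be described, 3 of them (SLC6A3, SLC6A5 and SLC7A3) listed at 0 in all 12 libraries. Poly(A) RNA of VCaP-T and VCaP-CT was sequenced, 2 long-term sublines of VCaP, a prostate cancer cell line from a bone metastasis that expresses the androgen receptor. VCaP-T (passage 84) was kept in 10 nM testosterone (T), and VCaP-CT (passage 73) was derived from it by long-term culture at 0.1 nM T to model castration resistance. Each line was sequenced as maintained and after 48 h at the dose of the other line, with 3 libraries in each of the 4 groups: maintained VCaP-T (10 nM T), depleted VCaP-T (0.1 nM T), maintained VCaP-CT (0.1 nM T) and rechallenged VCaP-CT (10 nM T). Values are given in this order. All groups grew in medium with charcoal-stripped serum, and each line is a single derivation.

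Amino acids cross the plasma membrane through carriers, many of which take up a substrate with sodium or protons or exchange it for another from inside the cell. The SLC7 light chains reach the cell surface only as dimers with a heavy chain, SLC3A2 (CD98) or SLC3A1 (rBAT). Leucine and glutamine entering by these routes activate mTORC1 growth signaling, and the SLC1, SLC7, SLC38 and SLC43 families include carriers known for supplying tumor cells, prostate cancer cells among them.

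The libraries hold 30.2 to 40.8 M counted fragments, and whether the replicates came from different cultures is not given, so that every p-value below rests on a spread between libraries that may be technical only. In bulk RNA, fewer cells of a type and less RNA per cell cannot be told apart. One library, depleted VCaP-T replicate 2, was unlike its sister libraries, with correlations of 0.962 and 0.967 across genes where all other replicate pairs had 0.992 to 0.994. In that library 28 of the 42 tested members lay below both sisters (66.7%, against 48.9% of all genes) and 9 above both (21.4%, against 42.2%). Over all genes tested it was lower than the sisters in long genes (median log2 difference -0.27 for the longer genes by exon length and 0.24 for the shorter), and for the members the medians were -0.59 and -0.34. Results on depletion are therefore also given without it. All 8 prostate epithelial markers were detected, with summed levels of 3817 to 7024 TPM (counts scaled to exon length and to the library total, a level per length). The 6 fibroblast markers summed to 1.596 to 2.47 TPM at 10 nM T, 8.74 to 11.6 in depleted VCaP-T and 21.8 to 24.9 in maintained VCaP-CT, with LUM alone at 0.561, 7.30, 23.0 and 1.70 TPM in the 4 groups. COL1A1 went the other way between the maintained lines (1.704 and 0.389 TPM), and DCN, COL1A2, COL3A1 and PDGFRA were at 0.0507 TPM or less. The 4 neuroendocrine markers summed to 41.6 to 45.3, 31.3 to 34.2, 15.35 to 16.5 and 35.8 to 38.8 TPM in the 4 groups. Sums were 2.43 to 4.59 TPM for the 4 endothelial and 0.258 to 1.155 for the 4 leukocyte markers. The part of these markers in the results below was not tested. Among the androgen-induced controls, KLK3, which encodes prostate-specific antigen, fell on depletion (log2 fold change -0.95, SE 0.11) and rose on rechallenge (3.13, SE 0.11).

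The transporter RNA of these cells was held by few genes. SLC1A5 (ASCT2), a sodium-dependent exchanger of glutamine and other neutral amino acids, had a mean of 300.4 TPM over the 12 libraries (range 228 to 379.9), although 23.8% of its exon length lies in exons of other genes, whose shared fragments were left out. It was followed by the glutamine carriers SLC38A1 (SNAT1, 111 TPM) and SLC38A2 (SNAT2, 82.4), the cationic amino acid carrier SLC7A2 (69.1) and the creatine carrier SLC6A8 (63.8). The next 5 were SLC7A1 (40.5), SLC3A2 (34.0), the leucine carrier SLC43A1 (28.1), SLC36A1 (24.9) and SLC1A4 (18.8). The 5 highest members made up 71.3% to 75.7% of the summed TPM of all members in every library. In all, 11 members were above 10 TPM, 16 between 1 and 10, and 16 of the described members were below 1. SLC7A5 (LAT1), the large neutral amino acid exchanger often studied in tumors, had 0.707 to 1.27 TPM by group mean, and the ratio of SLC43A1 (LAT3), which also carries branched-chain amino acids, to it was 16.3 to 43.9 over the libraries. The plot of levels shows this order with the 4 group means of each member.

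**Figure D1:**
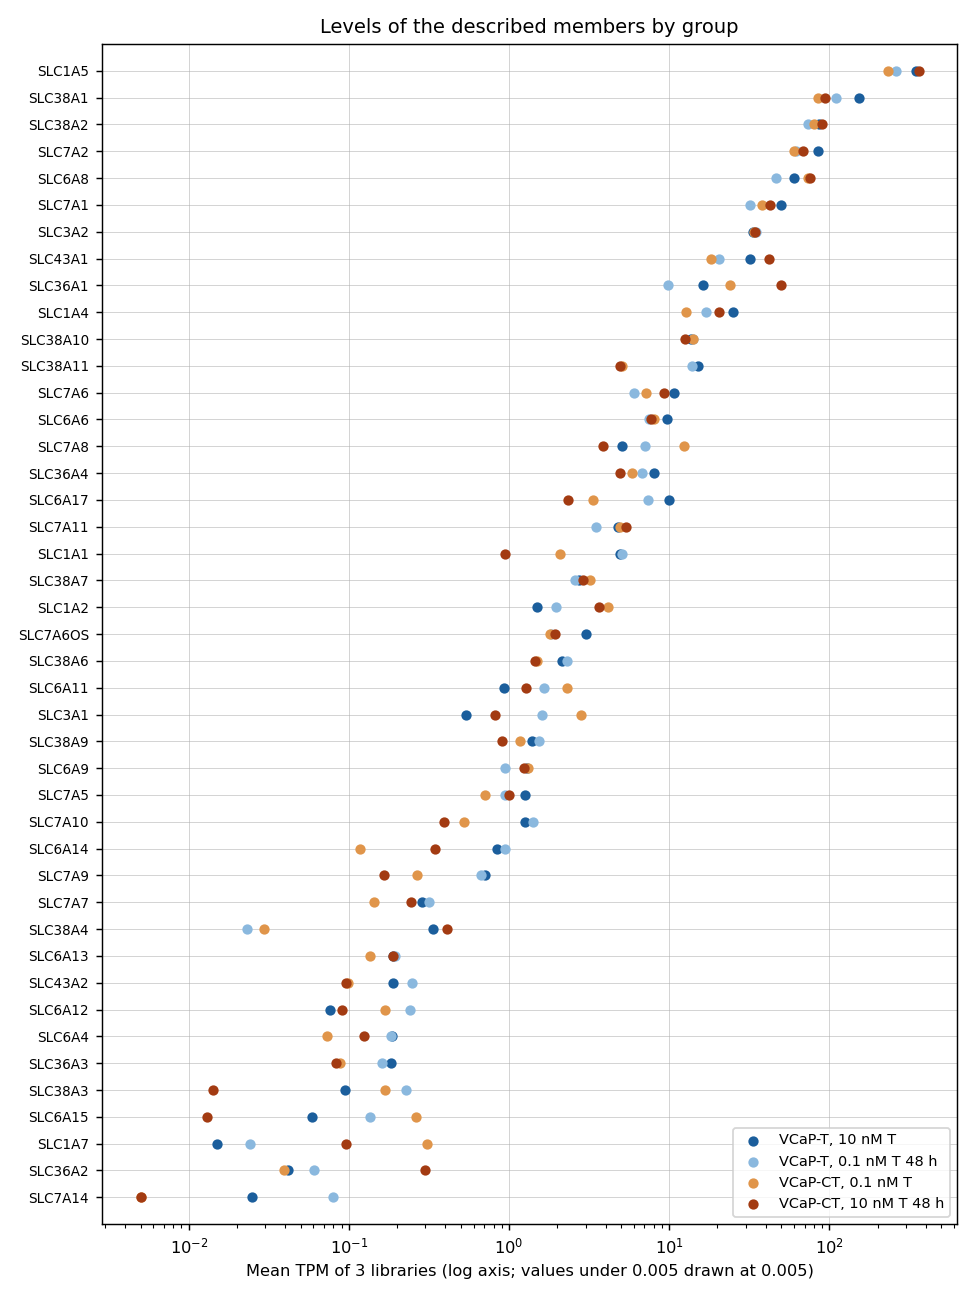
Mean TPM of 3 libraries (x axis, log scale) for the 43 described members, ordered by their mean over the 12 libraries, with a point for each of the 4 groups. SLC1A5 leads at 300.4 TPM and SLC7A5 lies near 1 TPM, and the groups spread widely for SLC1A1, SLC3A1, SLC6A14, SLC38A4 and other members of low level.

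Testosterone moved 4 of the 42 tested members in VCaP-T and 13 in VCaP-CT at an adjusted p under 0.01 (edgeR's quasi-likelihood test, adjusted over all 19162 genes tested by the Benjamini-Hochberg method). On depletion SLC3A1 rose (6.15% of all genes tested did), and SLC38A4, SLC43A1 and SLC1A4 fell (3.83% of all genes). On rechallenge 7 members rose (16.7%, against 7.07% of all genes), namely SLC43A1, SLC1A4, SLC38A4, SLC1A5, SLC36A1, SLC6A14 and SLC36A2. Of these, SLC36A2 reached a mean of 10 counts only in the rechallenged group, and SLC38A4 only in the groups at 10 nM T. Another 6 fell (14.3%, against 7.19%), namely SLC3A1, SLC7A8, SLC6A15, SLC1A1, SLC38A3 and SLC1A7. Each of the 4 members that passed on depletion passed on rechallenge with the opposite sign. The share of all genes that did so was not computed, so this is not shown to be particular to the members. The median log2 fold change of the members was 0.04 on depletion and -0.04 on rechallenge, beside 0.04 and -0.02 for all genes. The count of 7 that rose was 4 without any 1 of the maintained VCaP-CT libraries and 5 without any 1 of the rechallenged ones, with SLC6A14 and SLC36A2 lost in each and SLC36A1 in the former. In a fit of the 6 VCaP-CT libraries alone 12 rose (19.7% of all genes in that fit), the added ones being SLC7A1, SLC7A2, SLC7A6, SLC38A1 and SLC38A2.

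Leaving out depleted replicate 2 changed the count on depletion to 6 members higher and 11 lower, with 14.4% and 12.6% of all genes. The 4 members above passed in this fit too, SLC3A1 with 1.56 (SE 0.16), SLC43A1 with -0.56 (SE 0.06), SLC1A4 with -0.32 (SE 0.05) and SLC38A4 with an adjusted p of 0.000439 (edgeR). The added members higher were SLC7A8 (log2 fold change 0.80, SE 0.08), SLC1A2 (0.69, SE 0.07), SLC6A11 (1.15, SE 0.14), SLC6A12 (1.98, SE 0.48) and SLC7A14, which summed to 10 counts in maintained and 33 in depleted VCaP-T with all libraries (ratio 3.42, 1.65 to 7.78). Those lower were SLC1A5 (-0.42, SE 0.06), SLC36A1 (-0.38, SE 0.06), SLC7A6 (-0.45, SE 0.07), SLC7A6OS (-0.44, SE 0.10), SLC7A1 (-0.32, SE 0.05), SLC6A8 (-0.23, SE 0.06), SLC38A1 (-0.21, SE 0.04) and SLC7A2 (-0.17, SE 0.04). The group then rests on 2 libraries, whose spread is taken to be that of the other groups. SLC7A14 reached the mean of 10 counts needed for description only in depleted VCaP-T, the group in which it is high. In a fit of the 6 libraries of this comparison alone, SLC3A1 was the only member to pass and 0 passed lower (1.10% and 0.443% of all genes in that fit). SLC36A1 had 1098, 526.0 and 1034 normalized counts (counts scaled by TMM) in the depleted libraries against 1330.2 to 1429 in maintained VCaP-T. SLC7A8 had 636, 366 and 648 in the depleted libraries, the second of them inside the range of 345 to 395 of maintained VCaP-T.

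The leucine carrier SLC43A1 (ENSG00000149150.8, chr11:57484534-57515786 of GRCh38, as all gene positions here) moved with testosterone in both lines. Maintained VCaP-T had 1429, 1332 and 1365 normalized counts and depleted VCaP-T had 909, 1105 and 956, so that the groups did not overlap (log2 fold change -0.48, SE 0.09, adjusted p = 0.00267, edgeR). Maintained VCaP-CT had 847, 806 and 826, and after rechallenge it had 1931, 1754 and 1989.7 (1.19, SE 0.09, adjusted p = 1.97e-06, edgeR), a 2.29-fold rise. At 10 nM T the VCaP-CT libraries lay above those of VCaP-T (0.46, SE 0.09, adjusted p = 0.00123, edgeR). The response to T was larger in VCaP-CT than in VCaP-T by 0.72 on the log2 scale (SE 0.12, adjusted p = 0.00882, edgeR), the only member to pass this test of the difference, where 0.804% of all genes passed in that direction and 0.162% in the other. The 48 h change was a withdrawal in VCaP-T and an addition in VCaP-CT, so that line and direction of change cannot be told apart here. The depletion call was lost without 5 of the 6 libraries of that comparison, all but depleted replicate 2 (adjusted p up to 0.0161, edgeR). The difference between the lines' responses was lost without 10 of the 12 libraries, all but depleted replicates 1 and 2 (0.0150 to 0.0436). Without depleted replicate 2, the SLC43A1 difference was 0.63 (SE 0.09), and 5 members passed higher and 3 lower in VCaP-CT (5.62% and 1.77% of all genes in that fit), among them SLC36A1 (0.68, SE 0.07), SLC7A8 (-0.88, SE 0.11) and SLC1A1 (-0.86, SE 0.16). Of the 5 androgen-response controls, KLK3, STEAP4 and TMPRSS2 also passed with a larger response in VCaP-CT (KLK3 2.19, SE 0.15).

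**Figure D2:**
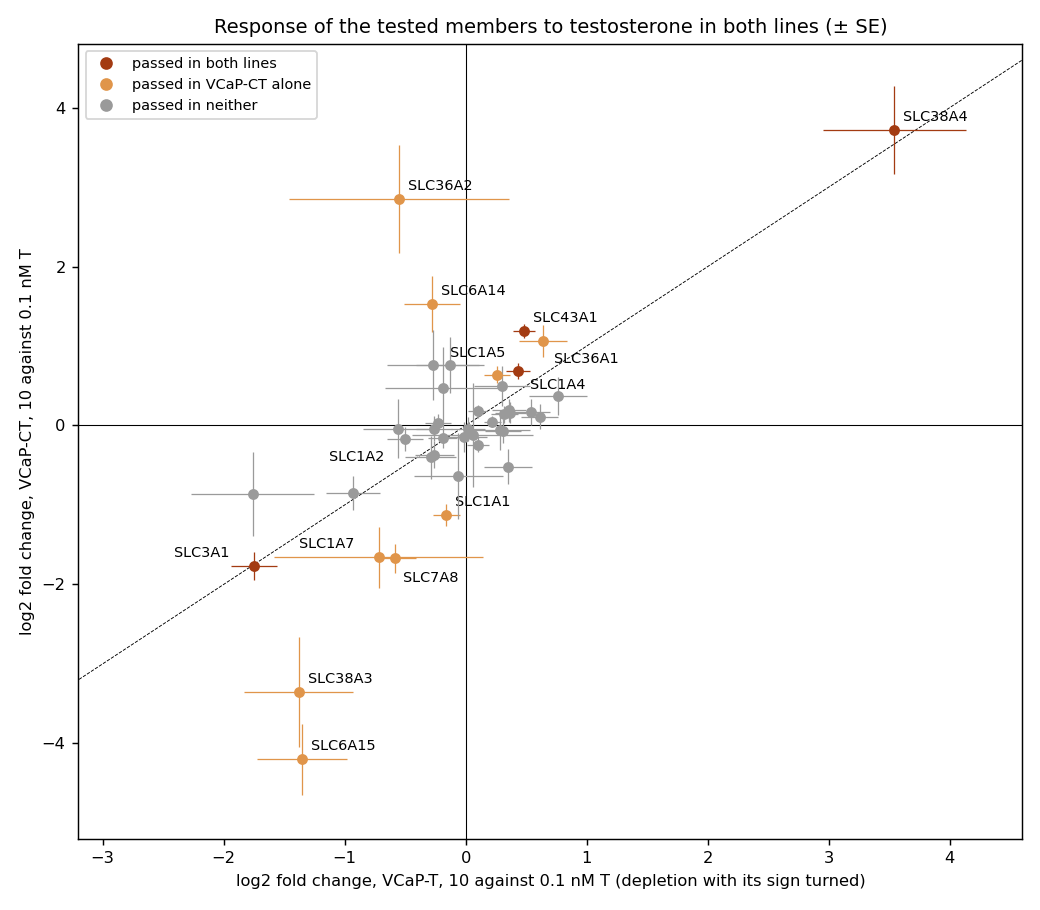
log2 fold change at 10 nM against 0.1 nM T in VCaP-T (x axis, the depletion contrast with its sign turned) and in VCaP-CT (y axis) for the 42 tested members, with bars of 1 SE, colors marking passes at an adjusted p under 0.01, and a dashed line of equal change. SLC38A4, SLC3A1, SLC43A1 and SLC1A4 passed in both lines, and SLC6A15, SLC7A8 and SLC1A1 are among those that passed in VCaP-CT alone.

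Both neutral amino acid exchangers of the SLC1 family rose on rechallenge, and 1 of them, SLC1A4, fell on depletion. SLC1A4 (ASCT1, ENSG00000115902.10, chr2:64988477-65023865), an exchanger of alanine, serine and cysteine, had 2173, 2038 and 2153 normalized counts in maintained VCaP-T and 1673, 1309 and 1733 after depletion (log2 fold change -0.43, SE 0.10, adjusted p = 0.00910, edgeR). In VCaP-CT it went from 1174, 1080 and 1137 to 1868, 1784 and 1783 on rechallenge (0.68, SE 0.10, adjusted p = 0.000358, edgeR). No depleted library reached the VCaP-T libraries at 10 nM T, and no VCaP-CT library at 0.1 nM T reached the rechallenged ones. SLC1A5 had 15315, 13819 and 13447 normalized counts in maintained VCaP-T, and 10103, 9800.1 and 9769 in maintained VCaP-CT against 15671, 14492 and 16114 after rechallenge. It rose 1.56-fold on rechallenge (log2 fold change 0.64, SE 0.11, adjusted p = 0.00142, edgeR), while the difference on depletion did not pass (-0.26, SE 0.11, adjusted p = 0.124, edgeR) with 10245, 14313 and 11056 in the depleted libraries. The replicate 2 value lies within the range at 10 nM T. At 10 nM T the lines had no difference that passed in SLC1A4 (-0.23, SE 0.10) or SLC1A5 (0.12, SE 0.11). The SLC1A4 call on depletion was lost without any 1 of the VCaP-T libraries at 10 nM T or depleted replicate 1 (adjusted p 0.0108 to 0.0361, edgeR).

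Among the sodium-coupled SLC38 carriers only low ones passed in the responses when the 4 groups were fitted together. SLC38A4 (SNAT4, ENSG00000139209.15, chr12:46764761-46832408) had 18.1, 13.3 and 19.2 normalized counts in maintained and 2.504, 0 and 1.03 in depleted VCaP-T. It had 1.71, 0.947 and 2.004 in maintained and 14.8, 33.3 and 17.1 in rechallenged VCaP-CT, so that the doses did not overlap in either line. SLC38A4 reached the mean of 10 counts needed for description only in the groups at 10 nM T, where it is high. Both groups at 0.1 nM T are near the floor of detection, so the ratio of summed counts is given with an exact 95% interval that covers counting error only. It was 12.5 on depletion (52 against 4 counts, 4.61 to 47.7) and 14.3 on rechallenge (60 against 5 counts, 5.78 to 45.5), with adjusted p of 0.00151 and 0.000403 (edgeR). SLC38A3 (SNAT3), a glutamine carrier, fell on rechallenge from 28 to 2 summed counts (ratio 11.8, 2.97 to 102, adjusted p = 0.00386, edgeR). That call was lost without 4 of the 6 libraries (adjusted p 0.0103 to 0.0197, edgeR). The abundant SLC38A1 and SLC38A2 did not pass in either response. SLC38A2, the member known to be induced when amino acids run short, had 6668, 6985 and 7157 normalized counts in maintained and 6956, 5772 and 6708 in depleted VCaP-T. In VCaP-CT it had 6566, 6884 and 6788 before and 7764, 8011 and 7102 after rechallenge, with log2 fold changes of -0.10 (SE 0.08) on depletion and 0.18 (SE 0.08) on rechallenge. SLC38A1 had 18107, 18751 and 19476 in maintained, 16215, 10855 and 16393 in depleted VCaP-T, 10699.8, 10889 and 10922 in maintained and 12183, 12650.4 and 11495 in rechallenged VCaP-CT. Both VCaP-CT groups lay below maintained VCaP-T. SLC38A3 is near the floor of detection in rechallenged VCaP-CT, with 0, 0 and 2.13 normalized counts.

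**Figure D3:**
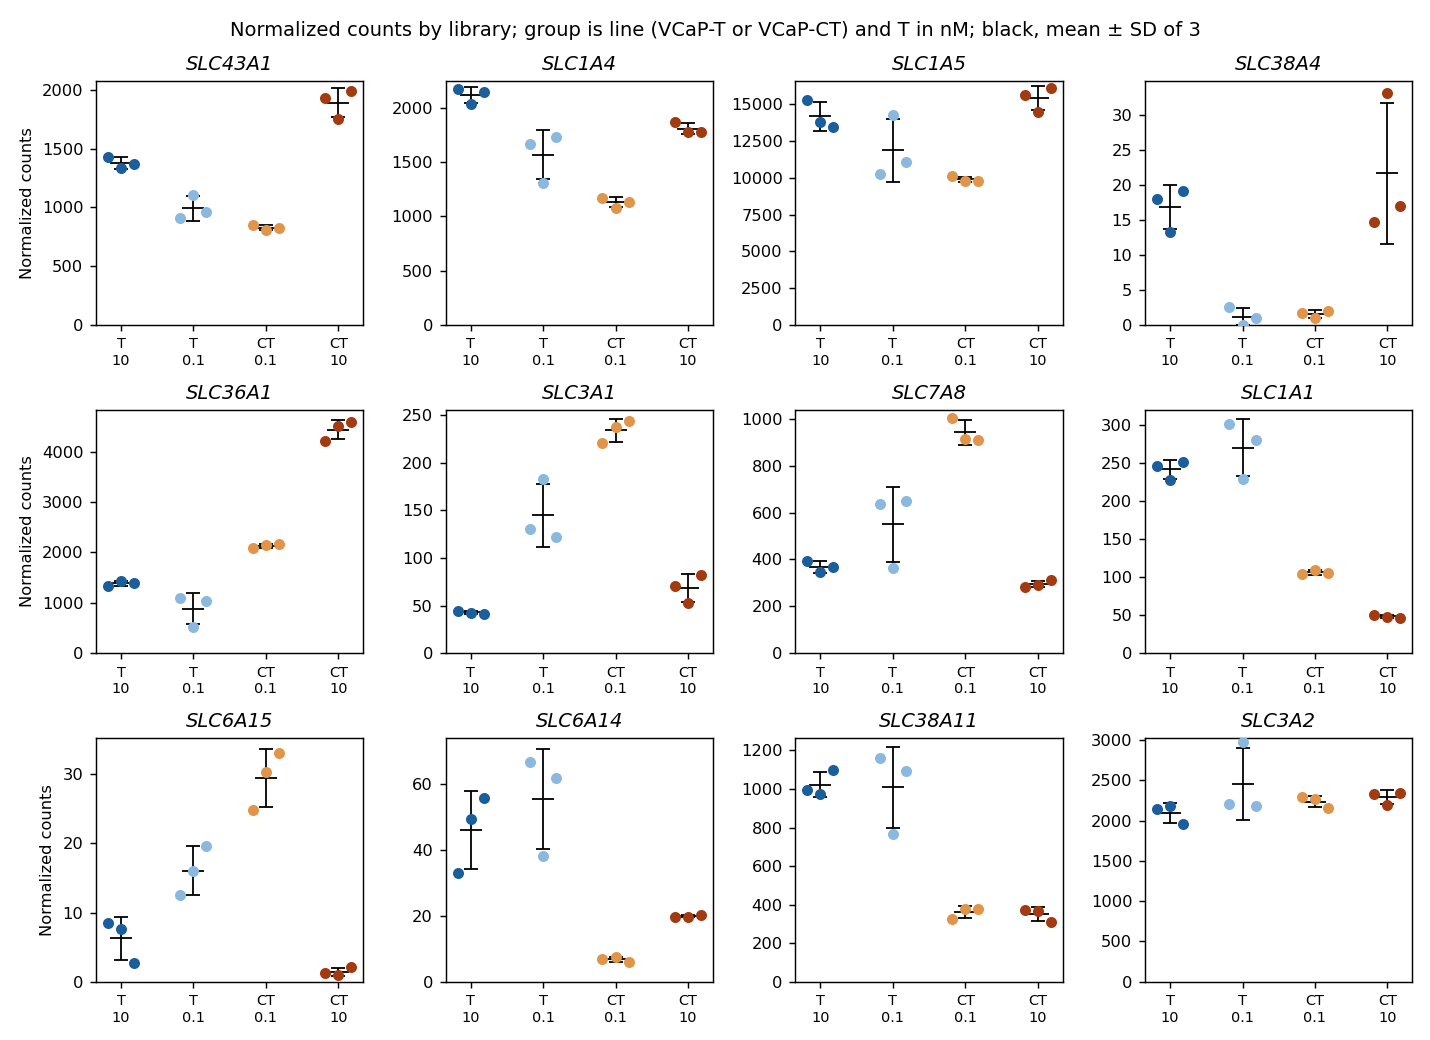
Normalized counts (y axis, from 0) of 12 members in each of the 12 libraries, with the group mean and SD of 3 libraries in black; T and CT stand for VCaP-T and VCaP-CT, and the number below is T in nM. SLC43A1, SLC1A4 and SLC38A4 are lower at 0.1 nM T in both lines and SLC3A1 is higher, while SLC38A11 separates the lines and SLC3A2 does not.

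The 2 heavy chains differed, SLC3A1 passing in both responses and SLC3A2 in neither. SLC3A1 (ENSG00000138079.13, chr2:44275458-44321494), the heavy chain of the cystine and dibasic amino acid transporter, had 44.6, 42.8 and 41.2 normalized counts in maintained VCaP-T and 130.2, 183 and 122 after depletion, with no overlap (log2 fold change 1.75, SE 0.19, adjusted p = 8.18e-05, edgeR). In VCaP-CT it had 221, 238 and 243 at 0.1 nM T and 70.1, 53.0 and 82.2 after rechallenge (-1.77, SE 0.18, adjusted p = 2.84e-05, edgeR). The 2 responses were thus of like size and opposite in sign, and the test of their difference gave -0.02 (SE 0.28). Exons of other genes cover 29.4% of the SLC3A1 exon length. Its light chain SLC7A9 was low, at 0.166 to 0.703 TPM by group mean, where SLC3A1 had 0.538 to 2.80. SLC7A9 passed in neither response (0.06, SE 0.37, on depletion and -0.64, SE 0.54, on rechallenge). The other heavy chain, SLC3A2, had 2147, 2185 and 1957 normalized counts in maintained and 2213, 2977 and 2187 in depleted VCaP-T, and 2155 to 2346 in VCaP-CT. Per length it had 33.2 ± 1.68, 34.6 ± 0.712, 33.8 ± 0.818 and 34.5 ± 0.983 TPM (SD, n = 3 libraries) in the 4 groups, and it passed in no comparison.

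Of the light chains that join SLC3A2, SLC7A8 passed on rechallenge, and none passed on depletion. SLC7A8 (LAT2, ENSG00000092068.19, chr14:23125295-23183674), an exchanger of neutral amino acids, had 1004, 914 and 911 normalized counts in maintained VCaP-CT and 284, 290 and 312 after rechallenge, a 3.19-fold fall (log2 fold change -1.67, SE 0.18, adjusted p = 3.25e-05, edgeR). Depletion gave 0.58 (SE 0.17, adjusted p = 0.0335, edgeR), and without depleted replicate 2 it passed as above. Of the summed TPM of SLC7A5, SLC7A6, SLC7A7, SLC7A8, SLC7A10 and SLC7A11, SLC7A8 made up 20.8% to 23.1% in maintained VCaP-T and 35.7% to 37.8% after depletion. It made up 46.4% to 49.9% in maintained VCaP-CT and 18.2% to 20.2% after rechallenge. These shares do not overlap between the doses in either line, and they keep that order when SLC7A6, 55.6% of whose exon length lies in exons of other genes, is left out (38.6% to 41.1%, 47.6% to 55.6%, 64.1% to 68.4% and 33.4% to 37.8%). No test was made on the shares. SLC7A11 (xCT), the cystine and glutamate exchanger, had 374 to 590.2 normalized counts in VCaP-T and 585 to 702 in VCaP-CT and passed in neither response (-0.32, SE 0.11, on depletion and 0.14, SE 0.11, on rechallenge), and nor did SLC7A5 (-0.30, SE 0.23, and 0.50, SE 0.25), with 40.8 to 95.6 normalized counts in VCaP-T and 40.7 to 68.3 in VCaP-CT.

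**Figure D4:**
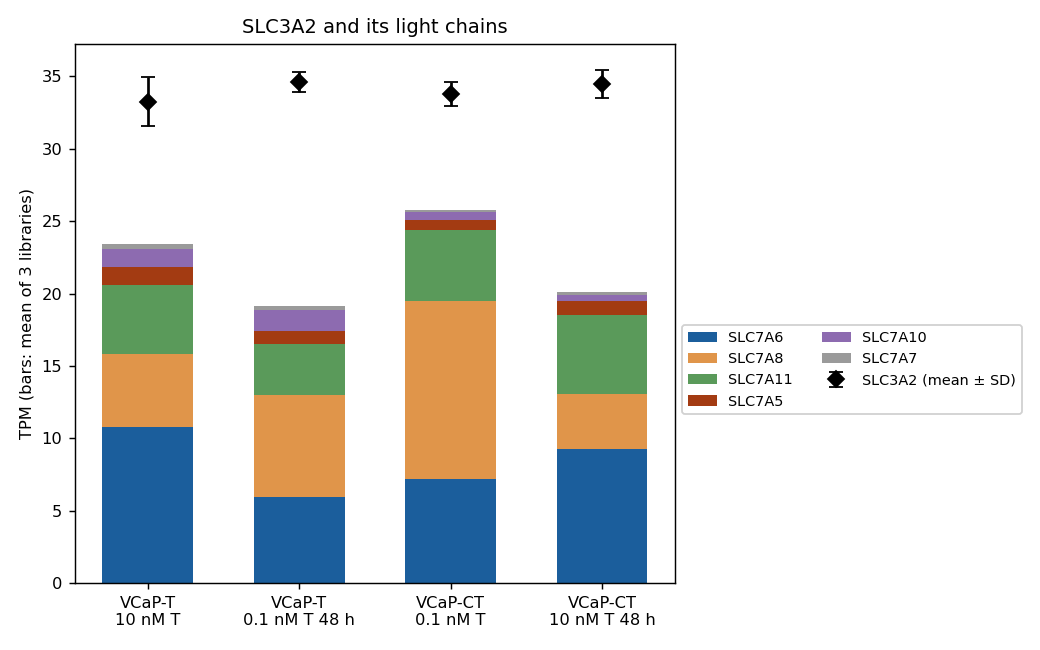
Stacked bars give the mean TPM of 3 libraries for the 6 light chains in each group, and diamonds give SLC3A2 with its SD (y axis from 0). The SLC7A8 segment is largest in maintained VCaP-CT (12.3 TPM, against 3.84 after rechallenge), while SLC3A2 stays between 33.2 and 34.6 TPM.

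The cationic amino acid carriers SLC7A1 (CAT1) and SLC7A2 (CAT2) were abundant and passed in no comparison when the 4 groups were fitted together. SLC7A1 had 4846, 4565 and 4540.2 normalized counts in maintained and 3772, 2123 and 3677 in depleted VCaP-T (log2 fold change -0.54, SE 0.16, adjusted p = 0.0350, edgeR). In VCaP-CT it had 3705 to 3783 before and 4099 to 4399 after rechallenge (0.17, SE 0.16). SLC7A2 had 7801, 8234 and 8568 in maintained and 7372, 4571 and 7261 in depleted VCaP-T, and 6016 to 6233 in maintained and 6818 to 7120.0 in rechallenged VCaP-CT. Both had their lowest value in depleted replicate 2, and both were lower on depletion when it was left out.

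The glutamate carriers of the SLC1 family differed between the lines in opposite directions. SLC1A1 (EAAT3, ENSG00000106688.11, chr9:4490444-4587469) had 246, 227 and 251 normalized counts in maintained and 301, 228 and 279.5 in depleted VCaP-T, ranges that overlap. VCaP-CT had 104, 110 and 105 at 0.1 nM T and 50.5, 47.8 and 46.9 after rechallenge, so that every VCaP-CT library lay below every VCaP-T library. It fell 2.19-fold on rechallenge (log2 fold change -1.13, SE 0.14, adjusted p = 9.04e-05, edgeR), and the lines differed by -1.35 (SE 0.12) at 0.1 nM T and by -2.32 (SE 0.13) at 10 nM T. SLC1A2 (EAAT2), the glial glutamate carrier, was the reverse, with 401, 420 and 432 in maintained VCaP-T and 654, 417 and 694 after depletion. It had 1165, 1171 and 1277 in maintained VCaP-CT and 1069, 1136 and 1012 after rechallenge, 2.04-fold and 2.57-fold above VCaP-T at 0.1 and 10 nM T (adjusted p = 0.000165 and 2.50e-05, edgeR). SLC1A7 (EAAT5) was near the floor in VCaP-T, with 3 and 5 summed counts at 10 and 0.1 nM T, and had 68 in maintained VCaP-CT and 18 after rechallenge. It reached the mean of 10 counts needed for description only in maintained VCaP-CT, where it is highest. The ratio between the lines was 12.6 (5.13 to 39.9) at 0.1 nM T and 6.83 (1.99 to 36.2) at 10 nM T. Its fall on rechallenge (-1.66, SE 0.38, adjusted p = 0.00766, edgeR) and the difference at 10 nM T were each lost without any 1 library of the comparison (adjusted p 0.0180 to 0.0437 and 0.0106 to 0.0343, edgeR).

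In the SLC6 family the neutral and cationic amino acid carrier SLC6A14 (ATB0,+) had 32.9, 49.4 and 55.8 normalized counts in maintained VCaP-T and 66.8, 38.3 and 61.9 after depletion. VCaP-CT had 6.85, 7.57 and 6.01 at 0.1 nM T and 19.7, 19.7 and 20.3 after rechallenge, below every VCaP-T library. The lines differed by -3.02 (SE 0.30) at 0.1 nM T and by -1.21 (SE 0.27) at 10 nM T, and the rise on rechallenge (1.53, SE 0.35, adjusted p = 0.00717, edgeR) was lost without any 1 of the 6 libraries (adjusted p 0.0211 to 0.0297, edgeR). The difference at 10 nM T was lost without 5 of the 6, all but VCaP-T replicate 1 (0.0138 to 0.0176). SLC6A15 (B0AT2), a branched-chain amino acid carrier known from brain, had 24.8, 30.3 and 33.1 normalized counts in maintained VCaP-CT and 1.23, 1.04 and 2.13 after rechallenge. Its summed counts went from 94 to 4, a ratio of 19.8 (7.47 to 74.1, adjusted p = 4.06e-05, edgeR). In VCaP-T it had 8.49, 7.61 and 2.75 at 10 nM T and 12.5, 16.1 and 19.6 after depletion, which did not pass (1.35, SE 0.37, adjusted p = 0.0231, edgeR). SLC6A17 (NTT4), a vesicular neutral amino acid carrier of neurons, had 855, 773 and 805 normalized counts in maintained and 736, 377 and 791 in depleted VCaP-T. It had 288, 274 and 289 in maintained and 197, 189 and 209 in rechallenged VCaP-CT, and was 2.24-fold and 4.09-fold lower in VCaP-CT at 0.1 and 10 nM T. The creatine carrier SLC6A8 had 4211, 4066 and 3805 in maintained and 3324, 3467 and 3557 in depleted VCaP-T. It had 5230.1, 5165 and 5064 in maintained and 5096, 5114 and 5739.6 in rechallenged VCaP-CT, all above the VCaP-T libraries, and was higher in VCaP-CT at both doses (0.58, SE 0.07, and 0.40, SE 0.07). SLC6A11 (GAT3), a GABA carrier, had 59.5 to 85.1 normalized counts in maintained and 92.6 to 170.2 in depleted VCaP-T (0.93, SE 0.22, adjusted p = 0.0117, edgeR), and 186 to 213 before and 98.5 to 124 after rechallenge in VCaP-CT (-0.85, SE 0.21, adjusted p = 0.0124, edgeR). SLC6A4, the serotonin transporter, was low, with 13.8 to 24.7 in VCaP-T and 5.99, 7.57 and 6.01 in maintained and 13.5, 8.31 and 11.7 in rechallenged VCaP-CT. Its difference at 0.1 nM T (-1.40, SE 0.32, adjusted p = 0.00426, edgeR) was lost without depleted replicate 2 or any 1 of the maintained VCaP-CT libraries (0.0112 to 0.0211).

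The proton-coupled carriers of the SLC36 family rose on rechallenge in 2 of 4 members (7.07% of all genes did), with both calls lost when certain single libraries were left out. SLC36A1 (PAT1, ENSG00000123643.12, chr5:151437046-151492381), which exports amino acids from lysosomes and takes part in mTORC1 activation, had 2084, 2149 and 2161 normalized counts in maintained VCaP-CT and 4215, 4501 and 4586 after rechallenge, a 2.08-fold rise (log2 fold change 1.06, SE 0.20, adjusted p = 0.00191, edgeR). Maintained VCaP-T had 1330.2, 1429 and 1395. Every rechallenged library was above every other library, and the difference from maintained VCaP-T was 1.68 (SE 0.20, adjusted p = 3.87e-05, edgeR). The rechallenge call was lost narrowly without any 1 of the VCaP-CT libraries at 0.1 nM T (adjusted p 0.0101 to 0.0114, edgeR). SLC36A2 (PAT2) is a low neighbor, with 7 summed counts in maintained VCaP-CT and 45 after rechallenge (ratio 7.64, 3.42 to 20.1, adjusted p = 0.00948, edgeR), a call lost without any 1 of the 6 libraries (0.0161 to 0.0491). It reached the mean of 10 counts needed for description only after rechallenge, so its place here depends on the group that carries the rise.

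Members differed between the lines in both directions. Maintained VCaP-CT against maintained VCaP-T, where line and dose change together, had 7 members higher (16.7%, against 14.8% of all genes) and 13 lower (31.0%, against 15.7%), and the median over the members was -0.38 beside 0.00 for all genes. At 0.1 nM T 7 were higher (16.7%, against 13% of all genes) and 9 lower (21.4%, against 16.4%). At 10 nM T 6 were higher (14.3%, against 12.0% of all genes) and 8 lower (19%, against 13.2%). At the same dose these shares lie near those of all genes. The comparisons at 0.1 and at 10 nM T share no library, but they compare the same lines in the same model. In both, SLC1A2, SLC1A7, SLC6A8 and SLC36A1 were higher in VCaP-CT, and SLC1A1, SLC6A14, SLC6A17, SLC7A10 and SLC38A11 were lower. The share of all genes that passed at both doses was not computed. SLC38A11 (ENSG00000169507.9, chr2:164896186-164955525), a sodium-coupled carrier of the SLC38 family, had 995, 976 and 1099 normalized counts in maintained VCaP-T and 1162, 767 and 1095 after depletion. It had 326, 379 and 379 in maintained VCaP-CT and 373, 368 and 309 after rechallenge, a difference of -1.48 (SE 0.15) at 0.1 nM T and -1.55 (SE 0.15) at 10 nM T, with log2 fold changes of -0.02 (SE 0.14) and -0.04 (SE 0.15) in the 2 responses. SLC7A10 (Asc-1), a light chain for small neutral amino acids, had 39.4 to 65.9 normalized counts in VCaP-T and 11.4 to 25.0 in VCaP-CT, with no overlap. Members past the threshold at 1 of the doses, of which SLC43A1 alone passed the test of the difference between doses, were SLC3A1, SLC7A8 and SLC7A11 higher and SLC1A4, SLC6A4, SLC38A6 and SLC43A2 lower at 0.1 nM T, and SLC36A2 and SLC43A1 higher and SLC7A9, SLC36A4 and SLC38A1 lower at 10 nM T. The values at the other dose were of like size for SLC3A1 (0.70, SE 0.17, and 0.67, SE 0.20, at 0.1 and 10 nM T), and SLC7A9 (-1.40, SE 0.42, and -1.98, SE 0.47) and SLC38A1 (-0.42, SE 0.13, and -0.63, SE 0.13) had the same sign at both. SLC36A2 at 10 nM T was lost without 5 of 6 libraries, all but maintained VCaP-T replicate 3 (adjusted p 0.0104 to 0.0358, edgeR). SLC3A1 at 0.1 nM T was lost without 5 of 6 libraries, all but depleted replicate 2 (adjusted p 0.0149 to 0.0274, edgeR), SLC7A11 without 4, all but depleted replicates 1 and 2 (0.0125 to 0.0325), and SLC7A9 at 10 nM T without any 1 (0.0108 to 0.0263). SLC43A2 (LAT4), a carrier of branched-chain amino acids, had 21.9 to 51.9 normalized counts in VCaP-T and 8.31 to 18.5 in VCaP-CT, and its difference at 0.1 nM T (-1.42, SE 0.32) was lost without maintained VCaP-CT replicate 1 or 2 (0.0142 to 0.0189). SLC7A9 had 18.3 to 27.6 in VCaP-T and 1.89 to 15.0 in VCaP-CT. It reached the mean of 10 counts needed for description only in the VCaP-T groups, where it is higher. Without depleted replicate 2 the counts at 0.1 nM T were 7 higher and 15 lower (23.2% and 24.4% of all genes in that fit), the added ones including SLC38A1 (-0.59, SE 0.04) and SLC7A14, which with all libraries summed to 33 counts in depleted VCaP-T and 1 in maintained VCaP-CT. Without maintained VCaP-CT replicate 1, 4 members were higher at 0.1 nM T, and without replicate 2, 6 were lower.

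**Figure D5:**
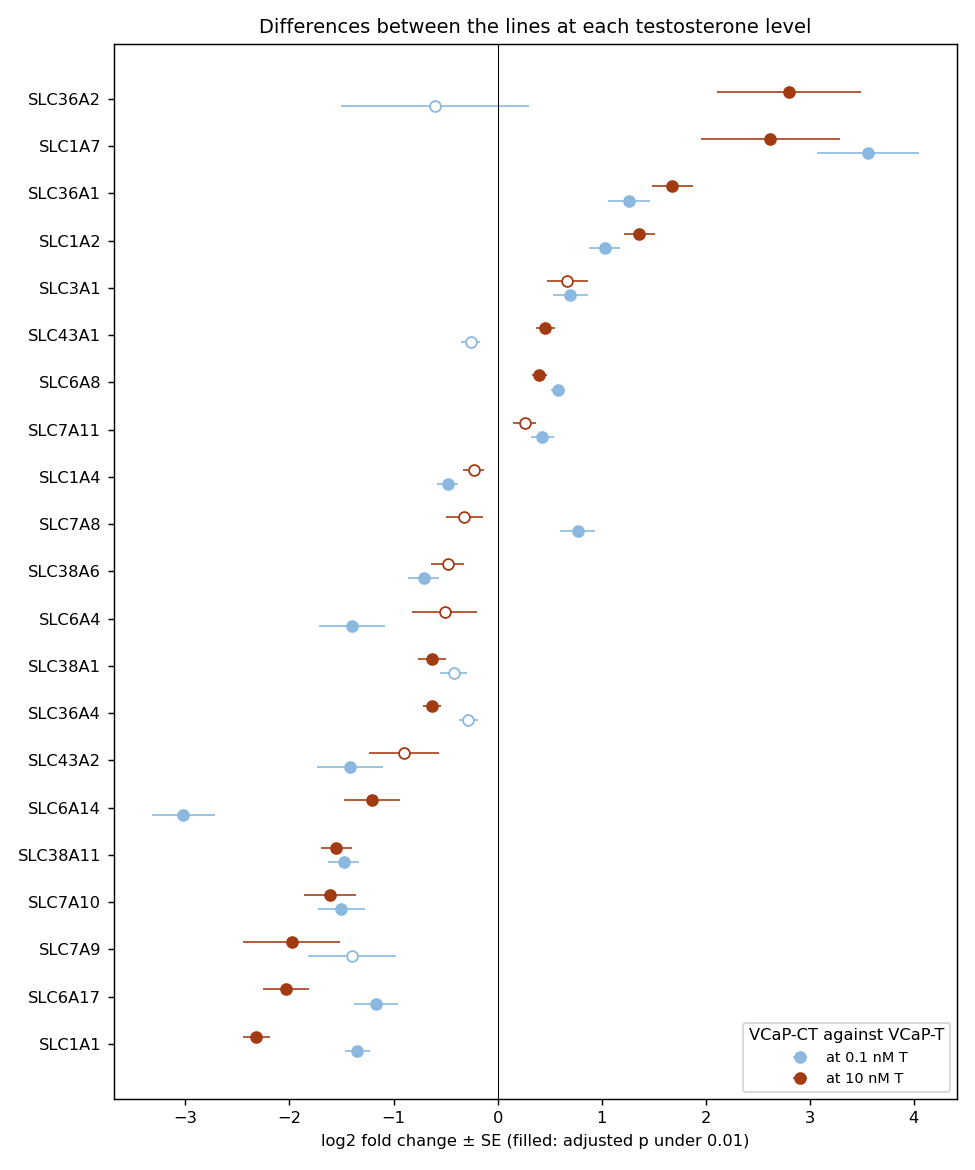
log2 fold change of VCaP-CT against VCaP-T with 1 SE (x axis) for the members that passed at 0.1 nM or at 10 nM T, with filled points for an adjusted p under 0.01. SLC1A1 and SLC6A17 lie furthest below 0 at 10 nM T, SLC6A14 at 0.1 nM T, and SLC43A1 and SLC7A8 have points on both sides of 0.

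Promoter windows of RefSeq (GRCh38.p14), 300 bases with 250 before the transcription start, were matched for 35 of the 43 described members. Motifs were searched on both strands: AGAACA, the half-site of the androgen response element, TGATGNAA, the core of the amino acid response element bound by ATF4 and C/EBP dimers, and CACGTG, the E-box bound by MYC and TFEB. AGAACA was in 3 of the 35 windows (8.57%, against 14.9% of 27305 promoters), those of SLC38A11, SLC36A3 and SLC38A4. TGATGNAA was in 3 (8.57%, against 3.67%), those of SLC3A2, SLC38A1 and SLC7A1, and CACGTG in 4 (11.4%, against 7.43%), those of SLC1A7, SLC43A1, SLC38A7 and SLC7A5. A full androgen response element, 2 half-sites in inverted order with 3 bases between, was in none of the 35 and in 1 of all promoters. The 250 bases before the start are shown for 3 members that rose and 3 that fell on rechallenge, with any of these motifs in capitals (AGAACA on the other strand reads TGTTCT). They are SLC43A1 (chr11:57515703-57515952, minus strand), SLC1A4 (chr2:64988229-64988478, plus), SLC38A4 (chr12:46825998-46826247, minus), SLC7A8 (chr14:23155321-23155570, minus), SLC1A1 (chr9:4490218-4490467, plus) and SLC1A7 (chr1:53142639-53142888, minus). For all of these but SLC1A7 the RefSeq start lies inside the gene as the count files delimit it, at unlike distances. On the minus strand, SLC38A4 runs to 46832408 and SLC7A8 to 23183674, so their whole windows lie inside the gene, away from its outermost start. A match is a description of letters and not a bound site.
SLC43A1: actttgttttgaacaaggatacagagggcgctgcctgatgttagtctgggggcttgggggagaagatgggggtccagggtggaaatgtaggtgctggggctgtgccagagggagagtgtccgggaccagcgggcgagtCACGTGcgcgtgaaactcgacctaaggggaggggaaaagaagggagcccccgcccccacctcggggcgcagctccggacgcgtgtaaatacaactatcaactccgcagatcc
SLC1A4: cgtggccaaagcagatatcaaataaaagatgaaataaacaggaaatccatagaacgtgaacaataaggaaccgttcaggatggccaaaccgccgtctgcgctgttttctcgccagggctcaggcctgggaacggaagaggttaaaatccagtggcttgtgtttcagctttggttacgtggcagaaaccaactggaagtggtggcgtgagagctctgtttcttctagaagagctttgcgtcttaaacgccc
SLC38A4: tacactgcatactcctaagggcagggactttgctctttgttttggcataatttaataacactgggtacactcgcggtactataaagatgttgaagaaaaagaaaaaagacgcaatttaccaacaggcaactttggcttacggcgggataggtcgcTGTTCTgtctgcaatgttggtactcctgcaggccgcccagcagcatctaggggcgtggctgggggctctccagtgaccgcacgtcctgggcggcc
SLC7A8: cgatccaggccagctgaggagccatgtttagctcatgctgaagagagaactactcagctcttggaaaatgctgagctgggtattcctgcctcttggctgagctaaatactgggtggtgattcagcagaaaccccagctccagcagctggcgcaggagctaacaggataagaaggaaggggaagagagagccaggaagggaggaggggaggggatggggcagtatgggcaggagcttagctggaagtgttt
SLC1A1: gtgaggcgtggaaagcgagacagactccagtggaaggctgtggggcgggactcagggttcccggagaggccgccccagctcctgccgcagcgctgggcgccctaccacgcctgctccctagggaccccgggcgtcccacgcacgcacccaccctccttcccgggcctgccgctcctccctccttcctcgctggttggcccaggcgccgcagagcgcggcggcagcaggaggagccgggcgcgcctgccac
SLC1A7: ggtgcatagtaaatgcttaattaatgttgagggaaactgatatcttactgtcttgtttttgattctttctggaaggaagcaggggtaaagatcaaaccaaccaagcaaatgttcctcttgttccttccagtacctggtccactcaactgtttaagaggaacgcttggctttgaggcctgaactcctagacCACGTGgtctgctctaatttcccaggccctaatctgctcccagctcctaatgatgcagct

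Several members are neighbors on the chromosome, and they did not all pass in the same comparisons. SLC38A1, SLC38A2 and SLC38A4 lie within 1 Mb on chromosome 12, where SLC38A4 followed testosterone and SLC38A2 passed in none in the fit of the 4 groups. SLC38A1 passed lower in VCaP-CT at 10 nM T and between the maintained lines, but not at 0.1 nM T. SLC36A3, SLC36A2 and SLC36A1 lie together on chromosome 5, with SLC36A2 and SLC36A1 89.5 kb apart and both higher on rechallenge. SLC7A7 and SLC7A8 are 295.5 kb apart on chromosome 14, and SLC7A7 passed in no comparison. SLC7A9 and SLC7A10 are 338.9 kb apart on chromosome 19. Both passed lower in VCaP-CT at 10 nM T, and SLC7A10 alone at 0.1 nM T. SLC43A1 is 57.0 kb from SLC43A3, which was too low to be described.

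Genes that use or sense amino acids give the surrounding pathway. Of 28 tested enzymes of amino acid metabolism, 3 rose and 5 fell on depletion (6.15% and 3.83% of all genes did), and 7 rose and 4 fell on rechallenge (7.07% and 7.19% of all genes). PSAT1, an enzyme of serine synthesis, fell on depletion (log2 fold change -0.49, SE 0.07) and rose on rechallenge (0.40, SE 0.07), while ARG2, a mitochondrial arginase, rose on depletion (0.75, SE 0.07) and fell on rechallenge (-1.61, SE 0.08). OAT, ornithine aminotransferase, separated the lines instead, at 1092 ± 12.7 normalized counts in maintained VCaP-T and 154 ± 16.3 in maintained VCaP-CT (SD, n = 3 libraries). Of 28 genes of amino acid sensing, 2 (7.14%, near the 6.15% and 7.19% of all genes) rose on depletion and fell on rechallenge, SESN1 (1.25, SE 0.09, and -1.30, SE 0.09) and SESN3 (0.86, SE 0.15, and -1.38, SE 0.16), both of the sestrin family that restrains mTORC1. ATF4, the transcription factor of the amino acid response, passed in neither response (0.33, SE 0.15, and 0.05, SE 0.15), and TRIB3, a target of ATF4, rose on rechallenge (1.00, SE 0.15). Of 16 tested amino acid or peptide transporters outside the 7 families, SLC15A2, SLC25A13 and SLC25A44 fell on depletion (18.8%, against 3.83% of all genes). The same 3 rose on rechallenge (18.8%, against 7.07% of all genes). For these and the sensing genes, the share of all genes that passed in both responses was not computed. SLC15A2 (PEPT2), a peptide carrier, had -1.02 (SE 0.12) and 1.27 (SE 0.12), and SLC16A10, an aromatic amino acid carrier, was higher in VCaP-CT at both doses (1.46, SE 0.08, and 1.01, SE 0.08).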

How the data were processed

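Poly(A) RNA was measured in 12 libraries of 4 groups, taken from the sample labels. The values are raw counts of fragments per gene, which the authors made with STAR 2.5.4b, GRCh38 and featureCounts 1.6.2 on Gencode exons. The strand was not used and fragments of several genes or places were left out, so overlapping genes lose fragments. The authors' normalized table (DESeq2 1.24.0, R 3.6.1) was not used, and 0 columns of unknown samples were present. Counts were tested in R 4.3.3 with edgeR 4.0.16 (quasi-likelihood test, TMM, default filter on low counts, 1 model of the 4 groups, 19162 genes) and adjusted over all genes by the Benjamini-Hochberg method. A pass is an adjusted p under 0.01. SE is the log2 fold change over the root of F. TPM used exon lengths. Low-count ratios are of summed counts over scaled library sizes, with exact 95% intervals. The code was tested on simulated data. Library totals were 30.2 to 40.8 M, and 3 libraries per group limit precision.

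Members and lists were chosen with earlier results of these data known. The 28 members named by rule were up to 6 per direction with the smallest adjusted p among those past a log2 fold change of 1 on depletion and rechallenge, those with a different response between lines, up to 5 per direction with the largest change between the lines at each dose, the 10 highest by TPM, and 12 fixed symbols. Other names, ATF4 among them, were added after their values were seen. Alternatives were DESeq2 1.42.0, its size factors, no low-count filter, a replicate block, the 6 libraries of a comparison alone, and leaving out each library. Libraries of the same replicate number showed no shared deviation from their group means, and whether they belong together is not given. Promoter windows are of RefSeq.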

Additional observations from a re-analysis of the deposited data

Results flagged for a closer look

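The response of SLC43A1 to testosterone, 10 nM against 0.1 nM T, was larger in VCaP-CT than in VCaP-T by 0.72 on the log2 scale (SE 0.12, adjusted p = 0.00882, edgeR). It stands here because the difference between the 2 lines' dose contrasts passed its own test. The contrast came from withdrawal in VCaP-T and from addition in VCaP-CT, so that the line and the direction of the change cannot be told apart. All 3 rechallenged libraries (1754 to 1990 normalized counts, SLC43A1) lay above all 3 libraries of maintained VCaP-T (1332 to 1429). The test lost its threshold in 12 of 16 other settings, with a log2 difference of 0.63 to 0.78 throughout. Groups of 3 libraries were too small for a test of single outlying values within a group. Leaving out each of the 12 libraries in turn lost the threshold for 10 of them.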

How the results depend on the processing

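Of 696 recomputed values of 63 results on named members, 570 kept their direction and side of the threshold, 126 kept the direction only, and 0 reversed. Members higher on depletion (1) were 2 with DESeq2's Wald test, 2 with no filter on low counts, and 1 to 6 when each library was left out, with 6 without depleted VCaP-T replicate 2. Members lower on depletion (3) were 5 with DESeq2, 6 with no filter, 0 in the 6 libraries alone, and 1 to 11 on leaving out a library, with 11 without depleted replicate 2 and 1 without any 1 maintained VCaP-T library. Members higher on rechallenge (7) were 12 in the 6 libraries alone and 4 to 5 on leaving out a library. At 0.1 nM T, members higher in VCaP-CT (7) were 3 in the 6 libraries alone and 4 to 7 on leaving out a library, and members lower (9) were 4 and 6 to 15. At 10 nM T, members lower (8) were 15 in the 6 libraries alone. Members with a larger response in VCaP-CT (1) were 0 with no filter, 0 with the replicate block and 0 to 5 on leaving out a library. Those with a smaller response (0) were 2 with DESeq2, 1 with no filter and 0 to 3 on leaving out a library. The cause of these changes was not tested. Deviations from the group means did not go together in libraries of the same number (correlation -0.157 to 0.051 over 18 same-numbered pairs, 0 over 0.1). Whether libraries of the same number belong together is not given. With the replicate block, members higher on rechallenge were 5 and lower 5, those higher in VCaP-CT at 0.1 nM T were 5, and the SLC43A1 difference in response had an adjusted p of 0.0335 (edgeR). DESeq2's size factors changed no count of members. With 3 libraries per group, changes of low members rest on few counts.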
